A study of Mus musculus with 12 samples.

Results

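Secreted signals that recruit or sustain macrophages, or are released by them, were followed in mouse limb mesenchyme of E14.5 embryos. They are 10 ligand genes of the 54532 in the deposited table: the growth factors *Csf1* and *Il34*, the chemokines *Cxcl12*, *Ccl2*, *Ccl7*, *Ccl3* and *Ccl4*, and the cytokines *Il1a*, *Il1b* and *Tnf*. The genes were chosen by their roles and with their changes between the groups in these same libraries already known, among them the changes of *Ccl4* and *Il1a*. The difference of the 10 ligands between the groups is therefore given as a description, with no p-value.

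Every embryo came from Prrx1-Cre males mated to females with Cre-dependent transgenes at Rosa26, so all 12 libraries share the Cre driver. Cre made from the Prrx1 limb enhancer acts in limb bud mesenchyme and opens the inherited allele: bovine Creb5, HA-tagged and followed by GFP (iCreb5, 6 libraries), or the red fluorescent protein tdTomato (tdTomato, 6 libraries), which is the control. Creb5 is a DNA-binding factor of the CREB/ATF family. Cells were FAC-sorted, and the colour gate is the only selection the labels imply. With GFP in iCreb5 and tdTomato in the control, the colour follows the group. Effects of the gate and of the transgene therefore cannot be told apart. Litter 3 gave 3 libraries to each group, named 3a, 3b and 3c, and litters 4, 5 and 6 gave 1 each. The labels name 4 litters whereas the series design mentions 6, and litters are taken from the labels here. Batch dates differ from litter to litter, and the effects of litter and batch cannot be told apart. The labels do not state if a library is 1 embryo or several, and a p-value reflects the spread among these libraries only, which may be technical.

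Macrophages live on signalling through the receptor Csf1r, which binds Csf1 and Il34, and in many tissues these growth factors come from mesenchymal cells. Cxcl12 is a chemokine of mesenchymal and stromal cells that acts through Cxcr4. Ccl2 and Ccl7 draw monocytes through Ccr2, Ccl3 acts through Ccr1, and both Ccl3 and Ccl4 are made mostly by leukocytes. Interleukin 1 alpha and beta and tumour necrosis factor are inflammatory cytokines for which activated macrophages are a main source.

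Values are normalised read counts, that is, reads divided by a size factor of the library. Libraries held 9.02 to 53.3 M reads (M for 1000000), and 3 reads were worth 1.48 to 8.38 units, which covers counting error only. Of 16733 genes tested, 648 were higher in iCreb5 (3.87%) and 477 lower (2.85%) at an adjusted p under 0.05 (limma). With libraries rescaled to equal totals the counts were 799 and 382, which moved the share of higher calls from 57.6% to 67.65%. With litter as a replicate block they were 859 and 728. *Creb5* was 2799 ± 214 in iCreb5 libraries and 1803 ± 299 in the controls (mean ± SD, n = 6; limma adjusted p = 0.00219), a count that may hold transgene reads. The list of 6 limb mesenchyme markers summed to 286694 to 577522 in iCreb5 and 272929 to 562526 in tdTomato. Most of each sum came from the collagen genes *Col1a1* and *Col3a1*. These had means of 171807 and 221559 in iCreb5, where *Prrx1* and *Pdgfra* had 4158.5 and 6303.5. None of the 6 was past the threshold, so both groups carry the labelled tissue's markers.

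The promoters of *Ccl3*, *Il1a*, *Il1b* and *Tnf* are shown because these 4 genes carry the largest differences among the ligands with a promoter in the RefSeq table (GRCm38.p6), which held 6 of the 10. Each line gives the 250 bases before the gene start, 5′ to 3′ on the strand of the gene, with capitals for the motif matches described after them. They lie at chr11:83649379-83649628 (*Ccl3*), chr2:129309973-129310222 (*Il1a*), chr2:129371140-129371389 (*Il1b*) and chr17:35202008-35202257 (*Tnf*), all on the minus strand.
Ccl3: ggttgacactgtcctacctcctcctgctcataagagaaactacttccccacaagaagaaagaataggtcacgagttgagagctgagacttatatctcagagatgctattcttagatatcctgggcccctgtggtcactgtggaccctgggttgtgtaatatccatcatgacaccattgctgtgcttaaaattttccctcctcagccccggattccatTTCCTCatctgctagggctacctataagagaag
Il1a: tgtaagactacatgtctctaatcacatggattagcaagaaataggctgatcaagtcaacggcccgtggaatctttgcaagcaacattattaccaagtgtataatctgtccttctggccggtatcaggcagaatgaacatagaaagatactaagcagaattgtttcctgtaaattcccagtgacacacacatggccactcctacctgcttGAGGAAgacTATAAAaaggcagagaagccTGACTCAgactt
Il1b: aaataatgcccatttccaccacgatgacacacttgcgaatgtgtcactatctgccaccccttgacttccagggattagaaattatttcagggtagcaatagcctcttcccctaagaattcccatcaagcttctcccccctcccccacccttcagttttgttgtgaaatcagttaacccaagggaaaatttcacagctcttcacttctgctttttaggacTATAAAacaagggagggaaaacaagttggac
Tnf: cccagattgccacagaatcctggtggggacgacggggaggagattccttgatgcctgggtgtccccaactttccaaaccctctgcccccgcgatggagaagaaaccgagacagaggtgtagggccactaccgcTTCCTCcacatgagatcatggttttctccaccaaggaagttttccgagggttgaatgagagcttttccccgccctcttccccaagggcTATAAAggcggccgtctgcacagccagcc

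Motifs were searched on both strands from 250 bases before to 50 after the gene start, and all matches fell before it. The cyclic AMP response element TGACGTCA, the full site bound by the CREB/ATF family, was in none of the 6 promoters and in 1.79% of 32851 promoters of that length. The shorter site TGACG, which lies within the full site, was in the *Cxcl12* promoter (chr6:117168285-117168534, plus strand) at -61 to -57 and in 20.8% of all promoters. The AP-1 site TGANTCA was in the *Il1a* promoter at -12 to -6, and in 7.81% of all. A core for the myeloid factor PU.1, GAGGAA, was found in *Ccl3* at -33 to -28, in *Il1a* at -41 to -36 and in *Tnf* at -117 to -112, against 28.3% of all promoters. The TATA box TATAAA was in *Il1a*, *Il1b* and *Tnf*, starting at -32, -31 and -29, and in 13.6% of all. The NF-kB consensus was in the *Csf1* promoter (chr3:107760470-107760719, minus strand) at -154 to -145 and in 8.46% of all, and the C/EBP site TTNNGCAA was in none of the 6 and in 10.8% of all. A match is a run of letters and was not tested for binding.

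The growth factors of the mesenchyme did not stand higher in iCreb5. *Csf1* (chromosome 3, 107741048 to 107760469, mm10) ran from 473 over a median of 736 to 986 in iCreb5, and from 555 over 885 to 995 in tdTomato. The ranges overlapped almost wholly, and the log2 difference of iCreb5 minus tdTomato was -0.15 ± 0.18 (SE). In both groups the lowest library was that of litter 5. *Il34* (chromosome 8, 110741829 to 110805924), the second ligand of Csf1r, was close to the floor at 2.47 to 11.9 in iCreb5 and 2.76 to 41.1 in tdTomato. Only 3 to 37 reads per library stood behind those values, and *Il34* was the 1 ligand of 10 below the filter of 10 units in 6 libraries.

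*Cxcl12* (chromosome 6, 117168535 to 117181367) was the ligand with the most reads. It ran from 4613 over a median of 6068 to 7032 in iCreb5 and from 6667 over 7457 to 10094 in tdTomato. The groups overlapped, with the iCreb5 libraries in the lower part, and the log2 difference was -0.37 ± 0.13 (SE), or 1.29-fold more in tdTomato. Without the libraries iCreb5 5 and iCreb5 6 it was -0.49 ± 0.14.

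The monocyte attractants *Ccl2* (chromosome 11, 82035571 to 82037453) and *Ccl7* (chromosome 11, 82045712 to 82047525) are neighbouring genes. *Ccl2* ran from 175 over a median of 272 to 733 in iCreb5 and from 132 over 174 to 265 in tdTomato. *Ccl7* ran from 98.2 over 152 to 626 in iCreb5 and from 53.9 over 113 to 159.7 in tdTomato. Both genes overlapped between the groups. The libraries iCreb5 5 and iCreb5 6 stood well clear of tdTomato, at 719.6 and 733 for *Ccl2* and 515 and 626 for *Ccl7*, and iCreb5 4a lay just above the highest tdTomato library at 323 and 165. The log2 difference of *Ccl2* was 0.86 ± 0.36 (SE) over all libraries and 0.29 ± 0.26 without those 2. For *Ccl7* it was 1.04 ± 0.45 and 0.31 ± 0.32.

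**Figure D1:**
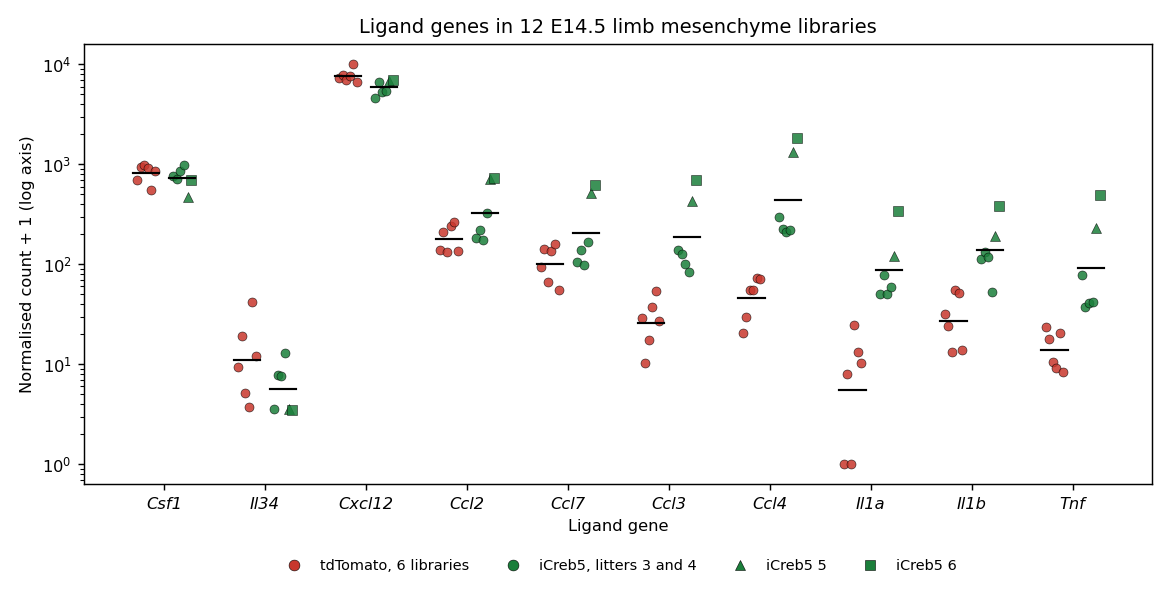
Normalised read count plus 1 (log axis) of the 10 ligand genes in each of the 12 libraries, red for tdTomato and green for iCreb5, with iCreb5 5 as a triangle, iCreb5 6 as a square and a bar at each group's geometric mean. For *Ccl4* the lowest iCreb5 library, at 208, lies above the highest tdTomato library, at 71.5, while *Csf1*, *Cxcl12*, *Ccl2* and *Ccl7* overlap.

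The chemokines *Ccl3* (chromosome 11, 83647844 to 83649355) and *Ccl4* (chromosome 11, 83662584 to 83664683) differed much more. *Ccl3* ran from 83.0 over a median of 132 to 701 in iCreb5 and from 9.39 over 27.0 to 53.2 in tdTomato. *Ccl4* ran from 208 over 259 to 1842 in iCreb5 and from 19.5 over 54.5 to 71.5 in tdTomato. For both, every iCreb5 library lay above every tdTomato library. *Ccl3* was 7.33-fold higher in iCreb5 and *Ccl4* 9.58-fold, as ratios of geometric means of count + 1, with log2 differences of 2.87 ± 0.52 and 3.26 ± 0.54 (SE). Without iCreb5 5 and 6 these differences were 2.10 ± 0.41 and 2.35 ± 0.35.

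*Il1a* (chromosome 2, 129299610 to 129309972) encodes a cytokine that is active already as a precursor. It ran from 48.9 over a median of 67.6 to 342 in iCreb5, and from 0 over 8.11 to 23.9 in tdTomato. The groups did not overlap, and the 0 values of tdTomato 3a and 3c allow up to 8.38 and 4.11 units, the worth of 3 reads in those libraries. The fold was 16.2 (log2 4.02 ± 0.78, SE), and it depends on the added 1 because the control values are near 0. With 5 added in place of 1, the log2 difference was 3.04, and on recovered reads it was 3.61 with edgeR. The order of *Il1a* and *Ccl4* turned under those settings, where *Ccl4* had 3.14 and 3.77.

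*Il1b* (chromosome 2, 129364570 to 129371139) ran from 51.7 over a median of 124 to 382 in iCreb5 and from 12.3 over 27.0 to 54.2 in tdTomato. The overlap came from litter 4 alone, where iCreb5 4a had 51.7 and tdTomato 4a had 54.2. The log2 difference was 2.34 ± 0.46 (SE), a 5.08-fold difference. *Tnf* (chromosome 17, 35199381 to 35202007) ran from 36.8 over 59.2 to 488 in iCreb5 and from 7.44 over 13.2 to 22.3 in tdTomato, without overlap. It was 6.58-fold higher in iCreb5 (log2 2.72 ± 0.58, SE), and 1.78 ± 0.41 on the log2 scale without iCreb5 5 and 6.

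In all, 9 of the 10 ligands were tested in the fit over all genes. Of these, 5 passed the threshold on the higher side (*Ccl3*, *Ccl4*, *Il1a*, *Il1b* and *Tnf*) and 0 on the lower side, where 3.87% and 2.85% of all genes did. In 4 of the 9 every iCreb5 library was above every tdTomato library, as in 2.83% of all genes tested. The median log2 difference of the 9 was 2.34 beside 0.00 over all genes. The choice of genes used this contrast, so nothing is read from these counts. A low level of a transcript in sorted tissue can mean fewer cells that make it or less RNA in each, which cannot be told apart in bulk libraries.

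Levels can be compared between genes per kilobase of exon. On that scale *Ccl4* in iCreb5 was at 1037 ± 1082 units per kb (mean ± SD, n = 6) and *Cxcl12* at 733 ± 123. The mean of *Ccl4* was carried by iCreb5 5 and 6: by the median *Cxcl12* was the more abundant, at 742 against 393, and the means do not differ beyond their spread. *Ccl2*, *Ccl3* and *Ccl7* followed at 345 ± 232, 343 ± 326 and 343 ± 291, and *Csf1* at 142 ± 32.5, again within each other's spread. The cytokines were lower, at 92.9 ± 110 for *Tnf*, 86.3 ± 60.7 for *Il1b* and 58.7 ± 57.8 for *Il1a*, and *Il34* was last at 2.80 ± 1.91. In tdTomato the order was led by *Cxcl12* at 946 ± 150.3, far above *Ccl2* (164 ± 52.4), *Csf1* (156 ± 31.6) and *Ccl7* (135 ± 54.1), which were close together. *Ccl4* (75.4 ± 32.3) and *Ccl3* (36.9 ± 20.2) came next, and *Il1b* (16.1 ± 9.49), *Tnf* (8.56 ± 3.92), *Il34* (7.30 ± 7.27) and *Il1a* (4.41 ± 4.52) lay at the bottom.

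Within the iCreb5 group the chemokines and cytokines were highest in the same libraries, while *Csf1* and *Il34* were not. iCreb5 6 was the highest of the 6 for 8 of the 10 ligands and iCreb5 5 the second highest for 8. The mean of these 2 libraries over the mean of the other 4 was 7.33 for *Tnf*, 6.69 for *Ccl4*, 5.05 for *Ccl3*, 4.51 for *Ccl7*, 3.97 for *Il1a*, 3.22 for *Ccl2* and 2.78 for *Il1b*. It was 1.26 for *Cxcl12*, 0.71 for *Csf1* and 0.36 for *Il34*. The mesenchymal growth factors thus did not share the excess of these 2 libraries that the other ligands had.

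Other genes moved with iCreb5 5 and 6. Their summed macrophage markers were 9712 and 16124, the highest of the iCreb5 group, against 3991 to 9382 in its other libraries, while tdTomato 5b and 6d of the same litters had 1663 and 1818. Their summed limb mesenchyme markers, mostly *Col1a1* and *Col3a1*, were the lowest of that group, at 286694 and 386973 against 413411 to 577522. The same sums were 272929 in tdTomato 5b and 517317 in tdTomato 6d. The summed mast cell markers of iCreb5 5 and 6 were 5937 and 5806, against 1769 to 2093 in the other iCreb5 libraries. Those of tdTomato 5b and 6d were 2599 and 3760, against 818 to 1078 in the other tdTomato libraries, so both groups had more in litters 5 and 6. The immediate early gene *Fos* was 28078 and 27661 there, against 7880 to 12104 in the other iCreb5 libraries and 8605 to 13808 in tdTomato. *Junb* was 6026 and 6848, against 1528 to 3322 and 1340 to 3034. Both genes were picked from a list of 10 immediate early and dissociation genes, in which *Hspa1b* and *Hspa1a* had the largest means. The whole list summed to 132850 in iCreb5 5 and 195201 in iCreb5 6, against 162051 to 210873 in the other iCreb5 libraries. Between the groups 0 of the 10 passed, and 2 were higher in litters 4 to 6 alone. Red cell markers in iCreb5 5 and 6 summed to 29417 and 26772, against 4661 to 8581 in the other iCreb5 libraries, while tdTomato 5b and 6d of the same litters had 38564 and 22743. The part of these in the ligand values was not tested.

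Seen by litter, *Il1a*, *Il1b*, *Ccl3* and *Ccl4* differed in the same direction in both sets of litters. The log2 differences in litter 3 alone and in litters 4 to 6 were 2.80 ± 0.43 and 2.94 ± 0.55 for *Ccl3*, 2.89 ± 0.38 and 3.63 ± 0.44 for *Ccl4*, 2.48 ± 0.39 and 2.21 ± 0.73 for *Il1b*, and 4.86 ± 0.86 and 3.17 ± 0.64 for *Il1a* (SE). For *Tnf* they were 1.60 ± 0.48 and 3.84 ± 0.64. *Ccl2* had 0.30 ± 0.25 and 1.43 ± 0.33, and *Ccl7* had 0.24 ± 0.33 and 1.83 ± 0.49. *Cxcl12* had -0.42 ± 0.15 and -0.33 ± 0.14, and *Csf1* stayed near 0 at -0.16 ± 0.18 and -0.13 ± 0.16. The test of the difference itself, an interaction in limma, called 0 of 16733 genes (1012 at an unadjusted p under 0.05). Its adjusted p was 0.822 for *Tnf* (difference of 2.23 ± 1.03, SE), 0.812 for *Ccl7* (1.59 ± 0.70) and 0.802 for *Ccl2* (1.13 ± 0.48), so the gap between the litter sets did not pass for any ligand.

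**Figure D2:**
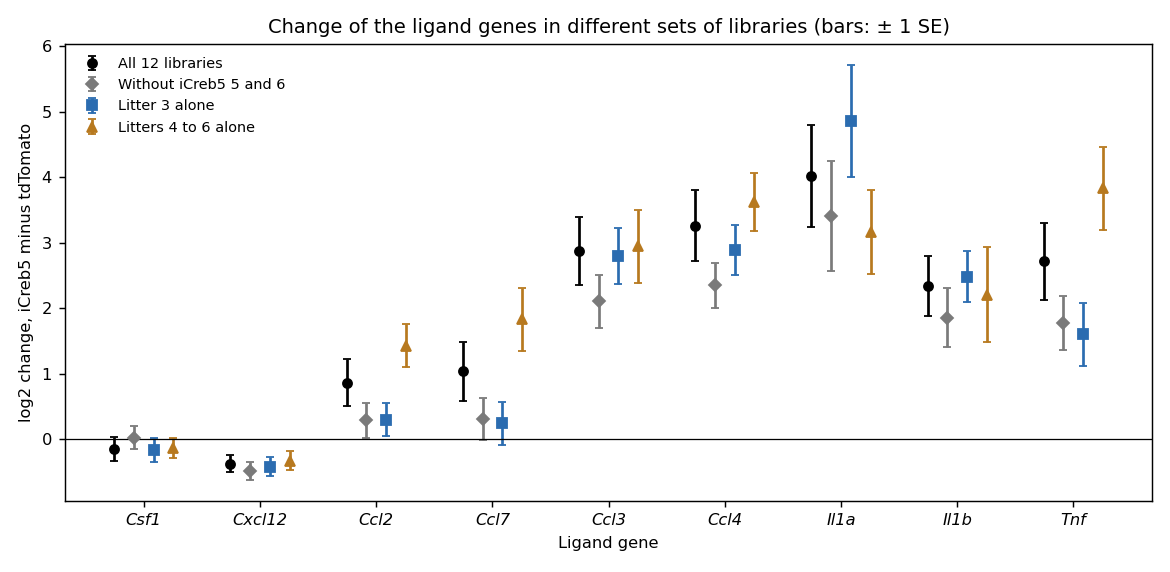
Log2 difference of iCreb5 minus tdTomato for the 9 tested ligands (points, bars ± 1 SE) in all 12 libraries, without iCreb5 5 and 6, in litter 3 alone and in litters 4 to 6 alone. *Ccl2* and *Ccl7* lie near 0 without iCreb5 5 and 6 (0.29 and 0.31), while *Ccl4* and *Il1a* stay at 2.35 and 3.41.

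Markers of macrophages moved in the same direction as the leukocyte ligands. Of 23 listed markers 21 were tested, 19 of them were higher in iCreb5 and 0 lower (limma, adjusted p under 0.05), with a median log2 difference of 2.58. Over all genes tested, 3.87% were higher and 2.85% lower, for this list and those below. The macrophage markers summed to 3991 to 16124 in iCreb5 and 1568 to 2398 in tdTomato. The complement gene *C1qb*, for example, was 1164 ± 702 against 133 ± 40.5 (mean ± SD, n = 6; adjusted p = 5.42e-05), while *Mertk*, which also occurs outside macrophages, was 477 ± 157 against 504 ± 160.4 (adjusted p = 0.916). Endothelial markers were higher for 4 of 6 tested genes, with sums of 1297 to 3470 in iCreb5 and 947 to 1423 in tdTomato. That count was 2 when iCreb5 3a, 3b, 3c or 6 or tdTomato 3a, 3b or 4a was left out in turn, 2 with no filter and 1 in litters 4 to 6 alone. Mast cell (4 tested), neutrophil (3), platelet (2), red cell (5), muscle (4) and epidermis (4) markers had 0 genes past the threshold. With litter as a replicate block all 4 mast cell markers were higher in iCreb5, at the same median log2 difference of 1.07. Without iCreb5 5 and 6, that median was 0.49 for mast cell markers and 2.34 for macrophage markers, of which 19 of 20 tested passed. That run kept tdTomato 5b and 6d of the same litters, which had the highest mast cell sums of their group. In litter 3 alone, and again in litters 4 to 6 alone, 3 of 4 mast cell markers were higher, with medians of 1.06 and 1.05. No lymphocyte marker reached the filter, and the B cell gene *Ms4a1* was at 0 in all 12 libraries.

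Each ligand was also expressed per 1000 units of the summed macrophage markers of its library. On this scale *Ccl3* had a median of 22.0 (13.6 to 44.0) in iCreb5 and 15.2 (5.92 to 32.0) in tdTomato. *Ccl4* had 48.2 (28.3 to 135.8) and 28.7 (11.2 to 43.0). *Il1b* had 17.9 (12.04 to 24.1) and 16.2 (5.14 to 34.6), and *Tnf* had 9.26 (5.51 to 30.3) and 7.94 (4.00 to 12.8). The groups overlapped for all 4 and for *Il1a*, which had 13.3 (5.21 to 21.2) and 4.74 (0 to 15.2). *Ccl2* and *Ccl7* overlapped with the lower median in iCreb5, at 43.2 against 106 and 32.2 against 69.3. *Csf1* and *Cxcl12* did not overlap: every iCreb5 library was lower, with medians of 98.7 against 442 and 714 against 4527. The summed markers themselves did not overlap, at 3991 to 16124 in iCreb5 and 1568 to 2398 in tdTomato. A gene with the same level in both groups therefore comes out lower in iCreb5 on this scale. The lower values of *Csf1*, *Cxcl12*, *Ccl2* and *Ccl7* are given as a description only. Whether the ligand transcripts came from macrophages was not tested.

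**Figure D3:**
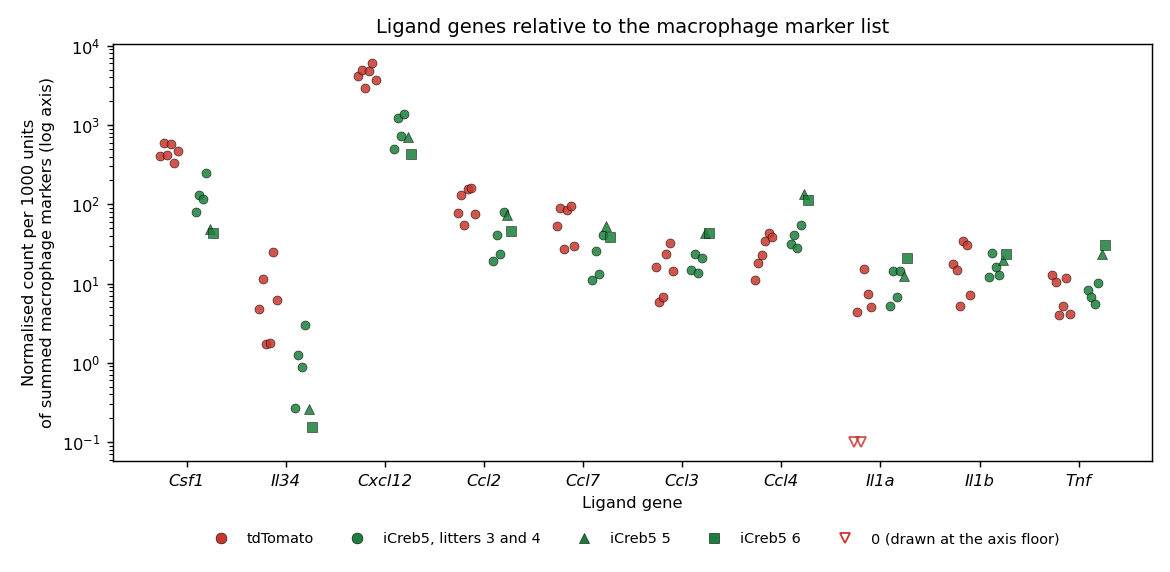
Normalised count of each ligand per 1000 units of summed macrophage markers (log axis) in the 12 libraries, with open triangles on the axis floor for the 2 tdTomato libraries with 0 *Il1a*. The groups overlap for *Ccl3*, *Ccl4*, *Il1a*, *Il1b* and *Tnf*, and iCreb5 lies below tdTomato for *Csf1* and *Cxcl12*. The summed markers are higher in every iCreb5 library, which by itself lowers a gene of equal level on this scale.

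Inside each group of 6 libraries the ligand level was set against the mean log2 marker level, in 18 pairs of ligand and group. None of the 18 passed after Benjamini-Hochberg adjustment (smallest adjusted p = 0.2, exact two-sided permutation, n = 6, the smallest p possible being 0.00139). In iCreb5, *Il1b* had Pearson's r = 0.89 (exact permutation p = 0.0264) and Spearman's rho = 0.77 (exact p = 0.103). *Tnf* had r = 0.86 (exact p = 0.0264) and rho = 0.83 (exact p = 0.0583), and *Ccl3* had r = 0.83 (exact p = 0.0444) and rho = 0.94 (exact p = 0.0167). The 2 libraries farthest from the median marker level were iCreb5 4a and 6. Without them r was 0.25 for *Il1b*, 0.70 for *Tnf* and 0.47 for *Ccl3*. Leaving out the farthest libraries narrows the range of marker levels, so a lower r cannot show whether a correlation rests on them. In tdTomato *Il1b* had the opposite sign, with r = -0.84 (exact p = 0.0375), rho = -0.77 (exact p = 0.103) and r = -0.34 without tdTomato 3c and 6d.

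The genes most like each ligand were sought among 13458 genes, by Pearson's r over the 12 libraries after each group's mean was taken out, given here as a description of libraries that share depth and litter. *Ccl2* and *Ccl7* were each other's closest match (r = 0.972). Next came *Ncoa7* (0.95) and *Zfp36* (0.948) for *Ccl2*, and *Zfp36* (0.944) for *Ccl7*; *Zfp36* encodes an RNA-binding protein that promotes decay of cytokine transcripts. *Ccl3* was closest to the chemokine *Cxcl10* (0.98) and *Tnf* to *Cd83* (0.96), a surface protein of activated antigen-presenting cells. *Ccl4* was followed by *Atp6v0c-ps2* (0.914), *Noct* (0.897) and the leukocyte actin regulator *Coro1a* (0.893). *Il1a* was closest to *Slc3a2* (0.904) and *Il1b* to *Appl1* (0.914). *Cxcl12* was closest to *Cd9* (0.95) and *Csf1* to *Armc9* (0.971).

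The ligands act through receptors that myeloid cells, mesenchyme or both express. Of 13 receptor genes 11 were tested, 2 rose (*Csf1r* and *Ccr1*), 0 fell and 9 did not pass, with a median log2 change of 0.18. The shares over all genes tested were 3.87% and 2.85%. *Csf1r*, the receptor of Csf1 and Il34 and itself on the macrophage list, was 828 ± 417 in iCreb5 against 98.4 ± 43.8 (mean ± SD, n = 6), without overlap, a log2 change of 3.02 ± 0.35 (SE; limma adjusted p = 6.04e-05). *Ccr1*, a receptor of Ccl3 and Ccl7, was 91.4 ± 76.4 against 10.8 ± 8.99, a change of 3.16 ± 0.70 (adjusted p = 0.00998). Without iCreb5 5 and 6 *Ccr1* was at 2.55 with an adjusted p of 0.0557. The 2 most abundant receptors that did not pass were *Ackr3*, a scavenger of Cxcl12, at 2167 ± 501 against 2142 ± 673 (log2 0.04 ± 0.19; adjusted p = 0.948), and the TNF receptor *Tnfrsf1a* at 1416 ± 106 against 1575 ± 111 (log2 -0.15 ± 0.10; adjusted p = 0.442). *Cxcr4*, the receptor of Cxcl12, did not pass (log2 0.18 ± 0.34) and *Ccr2* was too low to test; both are named as receptors of a ligand described here, after their values were seen.

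Among 14 tested genes for the release of interleukin 1 and TNF and for feedback on them, 1 rose and 0 fell. Of all genes tested, 3.87% rose and 2.85% fell. *Casp1* and *Nlrp3*, 2 listed genes named after their values were seen, did not reach the filter. Their means were 21.4 and 38.3 in iCreb5 against 4.19 and 4.49 in tdTomato. *Il1rn*, the secreted antagonist of the interleukin 1 receptor, was 52.9 ± 25.5 in iCreb5 against 10.2 ± 11.2 (mean ± SD, n = 6), a log2 change of 3.11 ± 0.78 (SE; limma adjusted p = 0.0226). That call did not hold with edgeR (adjusted p = 0.0728), without iCreb5 3b (0.0568), iCreb5 6 (0.0543), iCreb5 5 and 6 together (0.0814) or tdTomato 3a and 5b together (0.0650), in litter 3 alone (0.200) or in litters 4 to 6 alone (0.0626). The most abundant genes that did not pass were *Nfkbia*, which encodes an inhibitor of NF-kB (log2 0.44 ± 0.25; adjusted p = 0.389), and *Zfp36* (log2 -0.13 ± 0.27; adjusted p = 0.863). Without iCreb5 5 and 6 *Zfp36* was lower, at -0.59 (adjusted p = 0.0317).

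Other chemokines changed in both directions, where 3.87% of all genes tested rose and 2.85% fell. Of 27 listed genes 19 were tested, 6 rose, 3 fell and 10 did not pass, with a median log2 change of 1.14. With equal library totals 8 rose and 2 fell, and with litter as a replicate block 9 rose and 3 fell. Without iCreb5 5 and 6, 3 rose and 3 fell, in litter 3 alone 3 rose and 2 fell, and in litters 4 to 6 alone 4 rose and 0 fell. The rises were those of *Pf4*, the platelet factor 4 gene that macrophages also express (log2 3.01 ± 0.40; limma adjusted p = 0.000175), the neutrophil attractant *Cxcl2* (2.94 ± 0.50; 0.00154), *Ccl24* (2.78 ± 0.68; 0.0204), *Ccl12* (2.18 ± 0.51; 0.0154), the interferon-inducible *Cxcl10* (1.79 ± 0.41; 0.0125) and *Cxcl16* (1.09 ± 0.26; 0.0177). *Ccl24* lost its call without iCreb5 3a (adjusted p = 0.0551) or iCreb5 6 (0.0535), and without iCreb5 5 and 6 together *Ccl12* and *Cxcl16* had adjusted p of 0.0700 and 0.0815. *Pf4* was 326 ± 194 in iCreb5 against 36.8 ± 13.6 in tdTomato, and *Cxcl2* was 318 ± 307 against 32.3 ± 18.5 (mean ± SD, n = 6), both without overlap.

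The falls were those of the B cell attractant *Cxcl13* (log2 -1.58 ± 0.30; limma adjusted p = 0.00301), the eosinophil attractant *Ccl11* (-1.26 ± 0.20; 0.000787) and *Cxcl14* (-0.51 ± 0.13; 0.0280). *Ccl11* was 109 ± 18.4 in iCreb5 against 267 ± 76.3 (mean ± SD, n = 6), without overlap. In litters 4 to 6 alone the adjusted p was 0.0606 for *Ccl11*, 0.111 for *Cxcl13* and 0.142 for *Cxcl14*. *Cxcl14* did not pass with equal library totals (adjusted p = 0.0554), nor without iCreb5 3a, 3c, 4a or 6 or tdTomato 3b or 6d, each left out in turn, with adjusted p of 0.0566 to 0.0687. *Cxcl1* (1.06 ± 0.31, limma adjusted p = 0.0562) did not pass, and it did in 5 alternative runs. Among these were equal library totals (0.0381), litter as a replicate block (0.0313), iCreb5 3c left out (0.0475) and tdTomato 4a left out (0.0167). *Ccl25* was at -0.08 ± 0.21 (0.894). *Ccl11*, *Cxcl14* and *Cxcl16* are named because they complete the counts, after their values were seen.

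**Figure D4:**
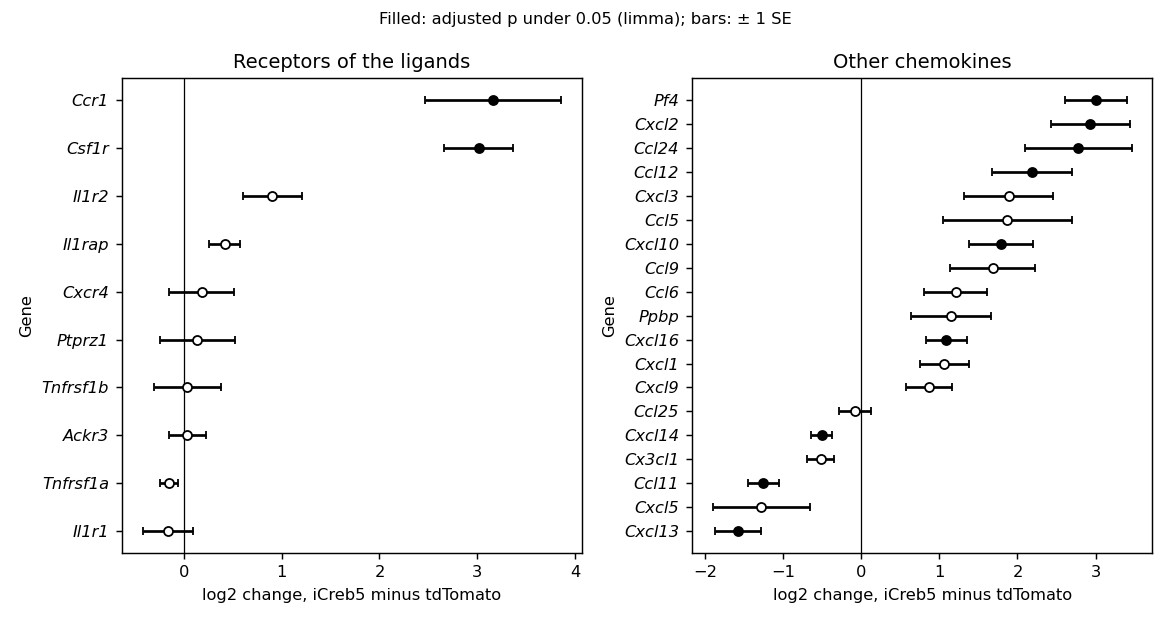
Log2 difference of iCreb5 minus tdTomato (points, bars ± 1 SE) for 10 of the 11 tested receptors and the 19 other tested chemokines, filled where the limma adjusted p is under 0.05. *Csf1r* and *Ccr1* stand apart among receptors at 3.02 and 3.16, and the chemokines run from -1.58 for *Cxcl13* to 3.01 for *Pf4*.

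Other cytokines and growth factors showed 0 rises and 2 falls among 15 tested genes of 24 listed, beside 3.87% and 2.85% of all genes tested. With litter as a replicate block the list had 4 falls, and with no filter it had 1 rise and 2 falls. *Il10*, *Osm* and *Il7*, named after their values were seen, did not reach the filter. The means of *Il10* and *Osm* were 33.3 and 25.4 in iCreb5 against 1.94 and 3.27 in tdTomato. *Il7* went the other way, at 2.09 against 10.07. The alarmin *Il33* was 170.4 ± 39.3 in iCreb5 against 351 ± 63.8 (mean ± SD, n = 6), a log2 change of -1.05 ± 0.18 (SE; limma adjusted p = 0.00154). *Tnfsf11*, the osteoclast growth factor RANKL, was 38.5 ± 9.85 against 81.9 ± 19.8, a change of -1.08 ± 0.25 (adjusted p = 0.0152). Neither gene overlapped between the groups, and in litters 4 to 6 alone neither passed (adjusted p = 0.149 and 0.147). The most abundant genes that did not pass were *Igf1* (-0.13 ± 0.12; adjusted p = 0.655) and *Mif* (-0.38 ± 0.17; 0.229), which passed with litter as a replicate block (0.0339).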

How the data were processed

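RNA from FAC-sorted cells was purified with a column kit and made into Nextera XT libraries, per the labels' protocols. FastQC, STAR, Salmon and DESeq2, and the build mm10, are named per the submitters' processing notes, without versions or roles. The sources used here do not give the annotation, strand use or handling of bovine transgene reads. The deposited values are a normalised signal, gene counts divided by a size factor of each library, judged from the values: 100% were whole multiples of 1 step (tolerance 1e-06), so whole reads were recovered. A table with 8 columns of stage P0 that match no labelled sample is not used here.

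The test of iCreb5 against tdTomato was a two-sided moderated test from limma 3.58.1 (R 4.3.3, mean-variance trend) of log2(value + 1) over the 16733 of 54532 genes with at least 10 in at least 6 libraries. Adjustment was Benjamini-Hochberg over all of them, with a threshold of 0.05. A fold is on the log2(value + 1) scale, a ratio of geometric means. The added 1 shrinks the change of low genes, yet with widely spread values, as for *Il1a*, the fold can exceed the ratio of group means. The alternatives were edgeR 4.0.16 (quasi-likelihood) and DESeq2 1.42.0 on the recovered reads, other scalings, pseudocounts and filters, litter as a block, litter sets, and libraries left out. On simulated data for iCreb5 against tdTomato (5 runs of 16733 genes), limma recovered 95% of 2-fold and 100% of 4-fold changes with 4.79% false among its calls, edgeR had 4.47% false and DESeq2 12%, above its nominal 5%. The simulation gave every gene the same dispersion and drew the changed genes only from the more abundant ones. Real genes such as *Ccl4*, at 684 ± 714 in iCreb5 (mean ± SD, n = 6), spread more widely. The simulated shares therefore do not carry over to such genes. The pass condition of this simulation was limited to limma and edgeR after DESeq2 had failed it. DESeq2 was kept as an alternative, and its larger counts are to be read with that. Litters, 4 by the labels and 6 by the series design, were taken from the labels and pair the libraries. Deviations from the group means correlated within litter at 0.13 (litter 3), 0.15 (4), 0.35 (5) and 0.00 (6).

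The 10 ligands and all gene lists were chosen with earlier results of these data known. From the lists of receptors, release and feedback genes, other chemokines and other cytokines, the text names the genes that passed (at most 6, by size of change) and the 2 with the highest level that did not, with exceptions marked where they stand. Per gene length, the union of exons in GENCODE vM21 was used. The 31-base words of the ligand transcripts were in no other gene's transcripts for 8 ligands, and at 0.101% for *Il34* and 0.11% for *Cxcl12*.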

Additional observations from a re-analysis of the deposited data

Results flagged for a closer look

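Single libraries stood apart from the rest of their group of 6 in 7 of 66 groups checked, by the gap to the nearest library relative to the group's range (Dixon's test at 95%, which flags about 1 in 20 groups by chance). Among the ligands these were *Il1a* in iCreb5 6, at a normalised count of 342.1 with the next library at 120.5, and *Cxcl12* in tdTomato 5b, at 10094 with the next at 7761. tdTomato 5b also stood apart for *Ackr3*, the scavenger of Cxcl12, at 3434 (next 2162), for *Mif* at 11022 (next 7198), for *Cxcl16* at 203.9 (next 124.5) and for *Ccl24* at 24.34 (next 8.376). *Cxcl13* was 142.6 in iCreb5 5, with the next iCreb5 library at 63.22. The cause was not tested for any of them.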

How the results depend on the processing

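The counts of genes higher and lower, 648 and 477, were 395 and 292 in litter 3 alone. In litters 4 to 6 alone, 320 were higher, and with litter as a replicate block 728 were lower. Besides that count, *Cxcl1*, *Mif* and the counts of other chemokines, other cytokines and mast cell markers given with them, the block changed no other call of a gene or list named here. Leaving out 1 library gave 476 to 696 higher and 364 to 511 lower. DESeq2 called 922 and 715, and edgeR 641 and 471. Receptors that rose numbered 1 in place of 2 with a filter of 50 units, in litter 3 alone and without iCreb5 5 and 6, and other chemokines that rose numbered 3 in place of 6 in litter 3 alone and without iCreb5 5 and 6. With a filter of 50 units, 7 ligands were tested and 3 passed on the higher side. Without iCreb5 5 and 6 the count of ligands on the lower side was 1 (*Cxcl12*). The ligands were chosen with this contrast known, so nothing is read from either count. Litter sets hold 3 libraries per group, so they have fewer samples, and for the other changes the cause was not tested. No result changed direction past a threshold in any alternative run. Depth limits *Il34* and the control values of *Il1a*, where few reads stand behind each value.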
